A study of Mus musculus with 2 samples.

Results

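Transcripts of 7 genes that encode connexins or potassium channels of glia were followed through the oligodendrocyte lineage of the mouse optic nerve, with and without a crush. The family was defined by gene name (Gjb1, Gjc3, Kcnj10, Kcnj16, Kcna1, Kcna2 and Kcnk1), with earlier results of these data known, and all 7 were found among the 31051 gene names of the tables. The data are 2 single cell RNA-seq libraries from wildtype 129S1/SvlmJ mice, 1 per condition. The injured library came from the injury site of 5 optic nerves taken 2 weeks after optic nerve crush (ONC), with ONC done at 8 weeks of age, and the uninjured library came from 5 nerves that were not crushed. Both libraries pooled males and females, the mice were 10 weeks old, and nothing ties a barcode to a mouse. The tables held 959 uninjured and 410 injured cell barcodes, with no barcode in common, each typed by the authors as oligodendrocyte progenitor cell (OPC; 58 uninjured and 17 injured barcodes), newly formed oligodendrocyte (NFO; 44 and 100) or oligodendrocyte (857 and 293).

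Connexins are the subunits of gap junctions, the channels that join the cytoplasm of neighbouring cells. Gjb1 encodes connexin 32, which oligodendrocytes use within myelin and in coupling to astrocytes, and Gjc3 encodes connexin 29, an oligodendrocyte connexin found mainly along the inner face of myelin. Potassium released by firing axons has to be taken up by the surrounding glia. Kcnj10 encodes Kir4.1, the main inward rectifier of central glia, and Kcnj16 encodes Kir5.1, which forms channels together with Kir4.1. Kcna1 and Kcna2 encode Kv1.1 and Kv1.2, delayed rectifiers best known from the axon beside the node of Ranvier, and Kcnk1 encodes TWIK-1, a two-pore-domain leak channel.

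With 1 library per condition there is no replicate check, so no test was made. Levels are given as CPM, the count of a gene's unique molecular identifiers (UMIs) per 1000000 UMIs summed over a class, with an exact Poisson 95% interval, and differences as ratios of CPM with an exact conditional 95% interval. Both cover counting error only, not the spread between mice. A gene is described as at least 2-fold higher or lower where the ratio reached 2 or 0.5 and the classes held at least 20 UMIs of it together. The authors made the types from the same values, so the differences between types are a description.

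The classes differed in depth. Oligodendrocyte barcodes had a median of 3060 UMIs in the uninjured and 1268 in the injured library, and the injured ones split into 84 barcodes of over 8000 UMIs (median 22473) and 133 of under 1000. Malat1, a nuclear RNA, made up less than 0.5% of UMIs in 5.60% of uninjured and 45.4% of injured oligodendrocyte barcodes. The shares were 63.6% and 77.0% of NFO barcodes, and 0% and 29.4% of OPC barcodes. The summed marker list of each type was highest in that type in both libraries. The 11 mature oligodendrocyte markers came to 77213 CPM in uninjured and 70213 CPM in injured oligodendrocytes, against 2592 and 1020 CPM in OPCs. The classes overlapped, since uninjured NFOs held 6300 CPM of NFO, 5514 CPM of OPC and 10082 CPM of mature oligodendrocyte markers. Single markers could go the other way, such as Enpp6 of the NFO list, at 404 CPM in uninjured NFOs and 524 CPM in uninjured oligodendrocytes. A list of 12 macrophage and microglia markers was higher in every injured class, at 265 against 27.0 CPM in oligodendrocytes, 605 against 21.2 CPM in NFOs and 230 against 29.2 CPM in OPCs (11, 10 and 9 of the 12 detected in the injured classes). For the differences of the members after ONC, values or counts are also given without the barcodes that hold a UMI of C1qa, C1qb, C1qc or Lyz2, transcripts of macrophages and microglia.

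**Figure D1:**
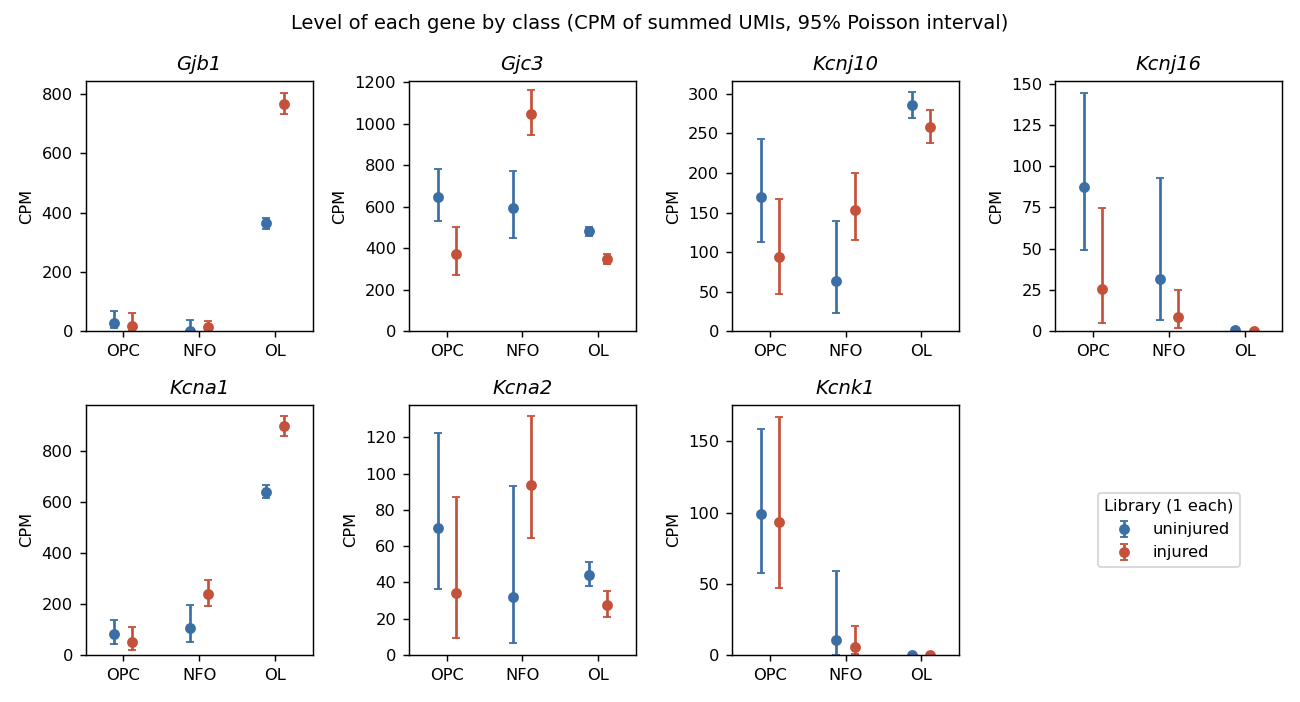
Level of each of the 7 genes (CPM of summed UMIs, linear axis from 0) in OPCs, NFOs and oligodendrocytes (OL) of the uninjured (blue) and injured (red) library; points are 1 library each and bars are exact Poisson 95% intervals. Gjb1 and Kcna1 are highest in oligodendrocytes, Kcnj16 and Kcnk1 in OPCs, and Gjc3 stands highest in injured NFOs at 1049 CPM of summed UMIs.

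Gjb1 was a transcript of the mature stage. Its level was 29.2 CPM (interval 9.48 to 68.1, 5 UMIs) in uninjured OPCs and 364 CPM (346 to 383, 1512 UMIs) in uninjured oligodendrocytes. Uninjured NFOs held 0 UMIs. For them a floor of 3 UMIs over the class comes to 31.9 CPM, which lies below the exact upper limit. The injured library gave 17.0 CPM in OPCs (2 UMIs), 14.2 CPM in NFOs (5 UMIs) and 767 CPM (732 to 804, 1766 UMIs) in oligodendrocytes. The 4 OPC and NFO values could not be ordered, since their intervals overlap, and both oligodendrocyte values stood far above them. Oligodendrocytes exceeded OPCs 12.5-fold (5.34 to 38.5) in the uninjured library and 45.1-fold (12.5 to 373) in the injured one. For uninjured oligodendrocytes over NFOs, which held 0 UMIs, the exact interval had a lower limit of 9.29-fold. Against a floor of 3 UMIs over the NFO class the ratio was 11.4-fold. Injured oligodendrocytes stood 54.0-fold (23.1 to 166) above injured NFOs. A UMI of Gjb1 was present in 55.8% of uninjured oligodendrocyte barcodes, against 6.90% of OPC barcodes, which lie at a lower median depth of 2290 UMIs.

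Gjc3, in contrast, was present at every stage. It reached 648 CPM (533 to 780, 111 UMIs) in uninjured OPCs, 595 CPM (449 to 773, 56 UMIs) in NFOs and 481 CPM (460 to 503, 1997 UMIs) in oligodendrocytes, so that only the OPC and oligodendrocyte intervals stood apart. After ONC it was 374 CPM (272 to 502, 44 UMIs) in OPCs, 1049 CPM (944 to 1161, 369 UMIs) in NFOs and 346 CPM (323 to 371, 797 UMIs) in oligodendrocytes. By summed UMIs injured NFOs were thus the highest of the 6 classes, at 2.80 times (2.05 to 3.92) the injured OPC level and 3.03 times (2.67 to 3.43) that of injured oligodendrocytes. Without macrophage transcripts the injured levels were 702 CPM (69 UMIs) in NFOs, 527 CPM (16 UMIs) in OPCs and 364 CPM (209 UMIs) in oligodendrocytes. Of the 369 UMIs in all injured NFOs, 59 were in 1 barcode. Averaged over barcodes the order was not kept, since the mean CPM was 819 in uninjured OPCs and 809 in injured NFOs, the mean normalized expression (NE, the authors' natural log unit) 1.67 and 1.34, and the share of barcodes with a UMI 74.1% and 53.0%. At a common depth of 1000 UMIs per barcode, 43.2% of uninjured OPCs, 33.3% of NFOs and 40.9% of oligodendrocytes held a Gjc3 UMI, while without thinning the shares were 74.1%, 40.9% and 73.9%; shallower barcodes were left out (14, 14 and 157).

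The inward rectifier pair separated by stage. Kcnj10 was found in all classes, at 169 CPM (113 to 243) in uninjured OPCs, 63.7 CPM (23.4 to 139, 6 UMIs) in NFOs and 286 CPM (270 to 302, 1185 UMIs) in oligodendrocytes, and at 93.5 CPM (11 UMIs), 153 CPM (115 to 200, 54 UMIs) and 258 CPM (238 to 280, 594 UMIs) in the injured classes. Oligodendrocytes held the highest level in both libraries, 1.69 times (1.17 to 2.53) the OPC level without injury and 2.76 times (1.53 to 5.56) with it. Over the alternative settings of depth, filter and averaging, these Kcnj10 ratios ran from 1.11 to 2.02 and from 1.45 to 5.76. Kcnj16 was at 87.6 CPM (49.0 to 144, 15 UMIs) in uninjured OPCs and 31.9 CPM (3 UMIs) in NFOs, but oligodendrocytes held 2 UMIs in 857 barcodes, 0.482 CPM, so the OPC level was 182-fold higher (42.2 to 1637). Injured OPCs and NFOs held 3 UMIs each and injured oligodendrocytes 0, where the floor of 3 UMIs comes to 1.30 CPM. Kcnj10 was detected without Kcnj16 in 454 uninjured oligodendrocyte barcodes and together with it in 2, and in the injured library in 123 and 0. In uninjured OPCs the numbers were 15 and 3.

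The Kv1 genes were not distributed alike. Kcna1 was the channel gene with the most UMIs in oligodendrocytes, at 641 CPM (617 to 666, 2660 UMIs) in the uninjured and 896 CPM (858 to 936, 2064 UMIs) in the injured library. It was at 81.7 CPM (14 UMIs) in uninjured and 51.0 CPM (6 UMIs) in injured OPCs, and at 106 CPM (10 UMIs) and 239 CPM (190 to 296, 84 UMIs) in the respective NFOs. Oligodendrocytes exceeded OPCs 7.85-fold (4.67 to 14.4) without and 17.6-fold (8.06 to 47.9) with injury. Over the alternative settings of depth, filter and averaging, the ratio ran from 7.42 to 15.1 without and from 1.53 to 61.2 with injury. Thinned to 500 UMIs, 22.2% (17.6 to 27.4) of injured oligodendrocytes and 11.8% (1.46 to 36.4) of 17 injured OPCs held a Kcna1 UMI. Kcna2 showed no such step, with 70.0 CPM (12 UMIs), 31.9 CPM (3 UMIs) and 44.1 CPM (37.9 to 51.0, 183 UMIs) in uninjured OPCs, NFOs and oligodendrocytes, whose intervals overlap. Its injured values were 34.0 CPM (4 UMIs), 93.8 CPM (64.6 to 132, 33 UMIs) and 27.4 CPM (21.0 to 35.0, 63 UMIs), and here NFOs stood 3.43-fold (2.18 to 5.30) above oligodendrocytes. Without macrophage transcripts the injured levels were 40.7 CPM in NFOs, on 4 UMIs, and 31.3 CPM in oligodendrocytes, on 18 UMIs.

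Kcnk1 was an OPC transcript in both libraries. OPCs held 99.2 CPM (57.8 to 159, 17 UMIs) without and 93.5 CPM (46.7 to 167, 11 UMIs) with injury. NFOs held 1 and 2 UMIs, uninjured oligodendrocytes 1 UMI and injured oligodendrocytes 0. The OPC level exceeded that of oligodendrocytes 412-fold (64.5 to 17206) in the uninjured library. For the injured library, where oligodendrocytes held 0 UMIs, the exact interval had a lower limit of 49.1-fold. The gene lies on chromosome 8 across from Gm45875 on the other strand, and whether the counting used strand is not given in the sources used here.

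Among the members with enough UMIs, 2 were at least 2-fold higher in oligodendrocytes than in OPCs without injury (Gjb1 and Kcna1), where 19.4% of 9693 genes were that much higher and 24.1% that much lower. In the injured library it was 3 (Gjb1, Kcnj10 and Kcna1), against 22.3% of 8711 genes higher and 23.7% lower. Kcnj16 and Kcnk1 had too few UMIs to be counted there, although their OPC levels were the highest in the uninjured library. Genes with a Kcn symbol were also compared between the stages. Of these 99, 15 had enough UMIs in the uninjured OPC and oligodendrocyte classes, among them the members Kcna1, Kcna2 and Kcnj10 and the noncoding Kcnq1ot1. In oligodendrocytes 3 were at least 2-fold higher and 6 at least 2-fold lower, against the 19.4% and 24.1% of all genes. The 3 were Kcna1, Kcna6 and Kcnj2, the last on 54 against 0 UMIs with a lower limit of 0.584. On the oligodendrocyte side stood Kcna6, a further Kv1 subunit, at 99.3 against 35.0 CPM (2.84-fold, 1.29 to 7.77), while Kcnk13, a two-pore-domain channel, was at 121 against 64.2 CPM. On the OPC side were Kcnip3, a calcium-binding partner of Kv4 channels, with 327 CPM in OPCs (56 UMIs) and 5 UMIs in all uninjured oligodendrocytes, and Kcnma1, the BK channel, at 87.6 CPM in OPCs and 16.1 CPM in oligodendrocytes (ratio 0.185, 0.104 to 0.348).

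Summed over all barcodes, oligodendrocytes held more Gjb1 and less Gjc3 per UMI sequenced after ONC, but not in every depth group. Gjb1 was 2.10 times as high (1.96 to 2.26) in the injured as in the uninjured library, and was the only one of 5 members with enough UMIs to pass 2-fold upward, against 7.72% of 10123 genes; none passed 2-fold downward, against 5.69%. Gjc3 was at 0.719 of its uninjured level (0.662 to 0.781), at 0.835 (0.755 to 0.922) in barcodes over 8000 UMIs and at 0.938 (0.767 to 1.14) between 1000 and 8000 UMIs. Below 1000 UMIs, in 133 injured and 157 uninjured barcodes, both connexins were at lower levels in the injured library, Gjc3 at 0.243 (0.135 to 0.413; 17 against 84 UMIs) and Gjb1 at 0.600 (0.283 to 1.21; 13 against 26 UMIs). In that group 3 of 4 members with enough UMIs were at least 2-fold lower (Gjc3, Kcnj10 and Kcna1) and 0 higher, where 44.9% of 1649 genes were lower and 20.3% higher. Without macrophage transcripts, in 113 injured and 830 uninjured barcodes, Gjc3 was at 0.753 (0.650 to 0.869). The astrocyte connexins were nearly absent from these barcodes. Gja1 had 25 UMIs in uninjured oligodendrocytes, 15 of them in 1 barcode, and 2 in injured ones, and Gjb6 had 2 and 1. Mean NE, which weights every barcode alike, was 0.962 in uninjured and 0.989 in injured oligodendrocytes for Gjb1, and 1.48 and 0.803 for Gjc3.

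The Gjb1 difference lay in the deeply sequenced barcodes. Above 8000 UMIs, 84 injured barcodes gave 839 CPM and 203 uninjured ones 396 CPM (ratio 2.12, 1.96 to 2.29). Between 1000 and 8000 UMIs the levels were 353 CPM in 76 injured and 325 CPM in 497 uninjured barcodes (ratio 1.09, 0.840 to 1.39). Within the injured library, deep barcodes exceeded those of middle depth 2.38-fold (1.89 to 3.05), and within the uninjured library 1.22-fold (1.10 to 1.36). The median UMIs of the deep group also differed, at 22473 and 11054, so depth and condition cannot be told apart there. Leaving out barcodes over 20000 UMIs gave 1.54 (1.37 to 1.72), the mean CPM over barcodes 1.27, and scaling by the median gene 1.97. The value was as large without the barcodes holding a macrophage transcript (2.08, 1.86 to 2.32) and in barcodes with Malat1 at or above 0.5% (2.18). Thinned to 1000 UMIs, 42.5% (34.7 to 50.6) of 160 injured and 26.9% (23.6 to 30.3) of 700 uninjured oligodendrocytes held a Gjb1 UMI. That setting left out 133 and 157 shallower barcodes. Thinning to 500 UMIs kept all 293 injured and 838 uninjured barcodes. The shares were then 18.8% (14.5 to 23.7) and 14.3% (12.0 to 16.9), with intervals that overlap. The unthinned shares of 45.7% and 55.8% go against the CPM and give no order.

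**Figure D2:**
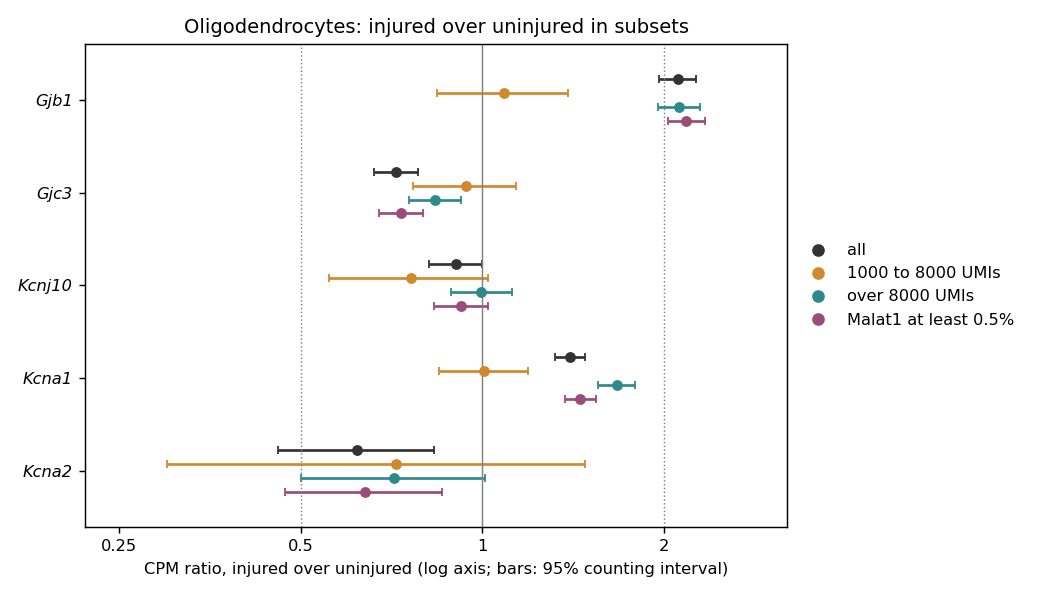
Ratio of CPM in injured over uninjured oligodendrocytes (log axis) for 5 of the 7 genes, in all barcodes and in subsets by depth and by Malat1 share; bars are 95% counting intervals and dotted lines mark 0.5 and 2. Among the 4 sets shown, Gjb1 lies near 2 except between 1000 and 8000 UMIs, where it is 1.09, and the points of Kcna2 lie below 1 in all 4 sets, with intervals that include 1 in both depth groups.

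Counts of Gjb1 and Gjc3 come from the same barcodes, so their ratio was also compared between libraries. There were 0.757 UMIs of Gjb1 per UMI of Gjc3 (0.708 to 0.810) in uninjured and 2.22 (2.04 to 2.41) in injured oligodendrocytes. In barcodes over 8000 UMIs it moved from 0.997 (0.911 to 1.09) to 2.53 (2.31 to 2.77), whereas between 1000 and 8000 UMIs the values were 0.551 (0.494 to 0.614) and 0.638 (0.470 to 0.861), with intervals that overlap. The size of such a ratio within 1 library also reflects how well each gene is captured, so only its shift between libraries is described. Within each library the ratio was higher in deep barcodes than at middle depth. The deep groups had a median of 22473 UMIs in the injured and 11054 in the uninjured library. Depth and condition therefore cannot be told apart in the shift of this ratio.

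Of the channels in oligodendrocytes, summed over all barcodes, Kcna1 was higher after ONC, Kcna2 lower and Kcnj10 close to its uninjured level. Kcna1 was at 1.40 times (1.32 to 1.48) its uninjured CPM, with 1.67 (1.56 to 1.79) in deep barcodes and 1.01 (0.848 to 1.19) at middle depth. Below 1000 UMIs it was 186 against 766 CPM, and the mean CPM over barcodes turned the direction, at 509 against 711 CPM (ratio 0.716). Kcna2 was at 0.620 (0.458 to 0.830), a count of 63 against 183 UMIs. There were 32.8 UMIs of Kcna1 (25.5 to 42.8) per UMI of Kcna2 in injured and 14.5 (12.5 to 17.0) in uninjured oligodendrocytes; in deep barcodes the values were 35.0 (26.7 to 46.7) and 15.0 (12.1 to 18.7), while at middle depth, with 8 injured UMIs of Kcna2, the intervals overlap. Kcnj10 stood at 0.903 (0.817 to 0.998) in all and 0.995 (0.886 to 1.12) in deep barcodes, at 0.437 (0.205 to 0.868) below 1000 UMIs, and at 0.639 by the mean CPM over barcodes. Without macrophage transcripts Kcna1 was at 1.39 (1.26 to 1.53), Kcnj10 at 0.819 (0.679 to 0.982) and Kcna2 at 0.713 (0.413 to 1.16), the last with an interval that spans 1.

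**Figure D3:**
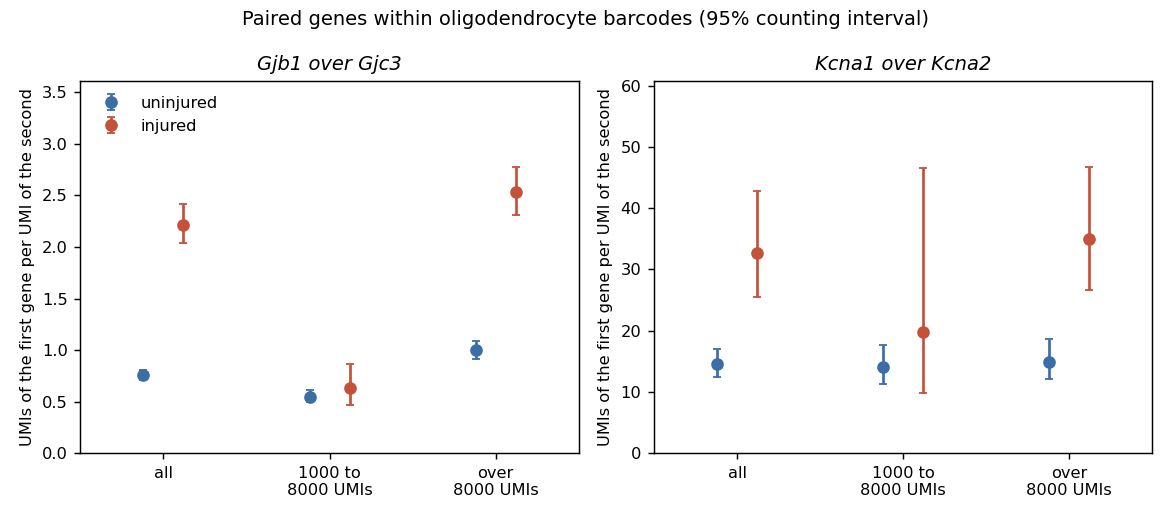
UMIs of Gjb1 per UMI of Gjc3 (left) and of Kcna1 per UMI of Kcna2 (right) in uninjured (blue) and injured (red) oligodendrocytes, for all barcodes and for 2 depth groups; bars are 95% counting intervals. The injured Gjb1 over Gjc3 values (2.22, 0.638 and 2.53) stand apart from the uninjured ones (0.757, 0.551 and 0.997) in all and in deep barcodes, but not at middle depth.

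Barcodes poor in Malat1 held the 4 members with the most UMIs at lower levels. In injured oligodendrocytes with Malat1 under 0.5% (133 barcodes, median 774 UMIs), Kcna1 was at 125 CPM against 942 CPM in the other 160, Gjb1 at 297 against 795 CPM, Gjc3 at 187 against 356 CPM and Kcnj10 at 156 against 264 CPM. Here 49.5% of 8400 genes were at least 2-fold lower, and the median ratio was 0.509. Over the 316 genes with at least 50 UMIs in both groups, the median ratio was 1.48. The comparison with all genes thus depends on the UMIs required, and whether the members stood out cannot be told from it. In the 48 uninjured barcodes of this kind Kcna1 was at 242 against 648 CPM and Gjb1 at 314 against 365 CPM.

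In NFOs, 3 channel genes were past 2-fold upward after ONC in the summed UMIs. Kcnj10 stood at 2.41 times (1.04 to 6.85) the uninjured level, Kcna1 at 2.25 times (1.16 to 4.86) and Kcna2 at 2.94 times (0.923 to 15.0), the last with an interval that spans 1. They were 3 of 4 members with enough UMIs, against 15.8% of 4038 genes (6.86% downward), and the median gene itself was shifted by 0.14 on the log2 scale. The fourth, Gjc3, was at 1.76 times (1.33 to 2.38). The uninjured NFO class rests on 94130 UMIs and on 6, 10 and 3 UMIs of the 3 channel genes.

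The NFO values moved with other measures of these barcodes. Of the 84 Kcna1 UMIs in injured NFOs, 21 were in 1 barcode, and the ratio without it was 1.84. Mature oligodendrocyte markers summed to 15353 CPM in injured and 10082 CPM in uninjured NFOs, NFO markers to 8600 and 6300 CPM, and OPC markers to 4570 and 5514 CPM. Without barcodes that hold a macrophage transcript, 41 of the 100 injured NFOs remained, Kcna1 was at 0.958 (0.358 to 2.57) of the uninjured level, Gjc3 at 1.18 (0.818 to 1.71), Kcnj10 at 1.92 (0.666 to 6.22) and Kcna2 at 1.28 (0.216 to 8.72; 4 and 3 UMIs). Without barcodes holding Gfap, Aqp4, Gja1 or Gjb6, transcripts of astrocytes, Kcnj10 was at 3.48 (1.27 to 13.3) and Gjc3 at 2.22 (1.64 to 3.07). The summed astrocyte list was 381 CPM in injured and 414 CPM in uninjured NFOs (8 and 6 of its 11 genes detected), with Gjb6, Slco1c1 and Fam107a at 0 in both.

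**Figure D4:**
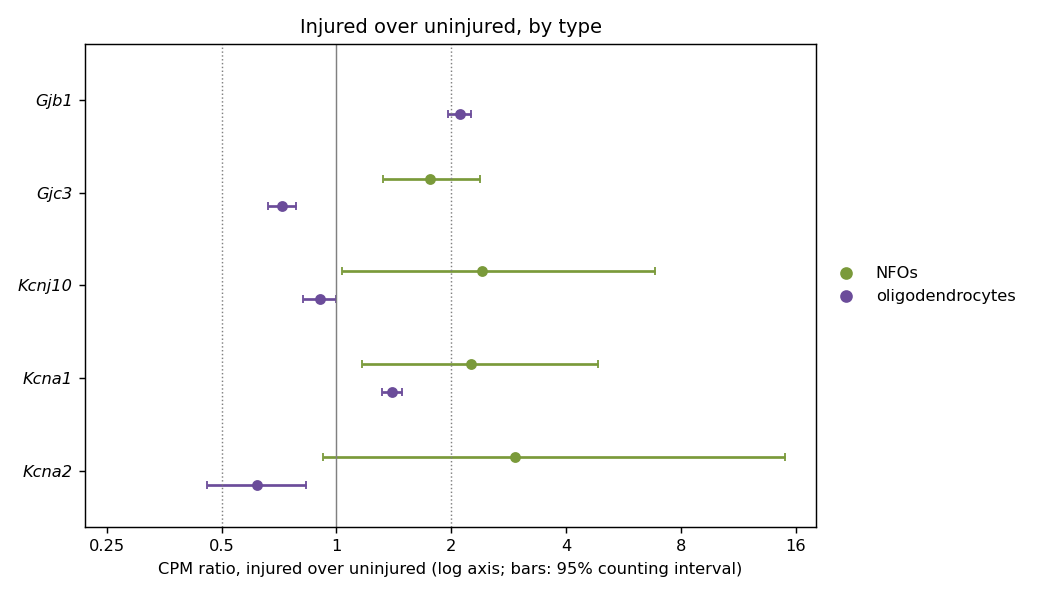
Ratio of CPM in the injured over the uninjured library (log axis) for NFOs (green) and oligodendrocytes (purple), for the 5 genes with enough UMIs; bars are 95% counting intervals, dotted lines mark 0.5 and 2, and Gjb1 has no NFO point because its NFO count is 5 UMIs. Gjc3 lies at 1.76 in NFOs and 0.719 in oligodendrocytes.

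OPCs offered little to compare. With 17 injured barcodes, none of the 4 members with enough UMIs passed 2-fold, against 12.6% of 3155 genes upward and 8.65% downward. Gjc3 was at 0.578 (0.398 to 0.826) of its uninjured level, Kcnj10 at 0.553 (0.249 to 1.14) and Kcna1 at 0.624 (0.197 to 1.73). Kcnk1 was at 0.943 (0.399 to 2.13), an interval that leaves room for a 2-fold difference either way. Without macrophage transcripts 6 injured OPCs remained, with Gjc3 at 0.845 (0.466 to 1.44) and 3 or fewer UMIs of each other member.

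The other genes of these pathways were taken from lists of symbols, and the counts by list include the members and the noncoding Kcnq1ot1. In oligodendrocytes, 12 of the 99 Kcn genes had enough UMIs after and without injury, 1 at least 2-fold higher and 0 lower, where 7.72% of all genes were higher and 5.69% lower, with a median ratio of 0.992 where the median of all genes was 1.03. The 1 was Kcnab1, a Kv1 beta subunit, at 10.0 against 3.62 CPM (2.76, 1.38 to 5.69; 23 and 15 UMIs). Kcnk13 was at 80.4 against 121 CPM, Kcna6 at 75.1 against 99.3 CPM and Kcnma1 at 30.8 against 16.1 CPM. In NFOs 6 Kcn genes were counted, 3 higher (the members above) and 1 lower (against 15.8% and 6.86% of all genes), Kcnq1ot1, which is an antisense noncoding RNA and no channel, at 213 against 510 CPM.

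Atp1b3 and 3 regulators of the sodium pump were more than 2-fold higher in oligodendrocytes after ONC, summed over all barcodes. No split by depth was made for these genes. The 84 injured barcodes over 8000 UMIs held 2001123 of the 2302349 injured oligodendrocyte UMIs, so depth and condition cannot be told apart. Of 26 genes for pump subunits, chloride cotransporters and junction partners, 20 were counted in oligodendrocytes, 5 at least 2-fold higher and 1 lower after ONC (against 7.72% and 5.69% of all genes), with a median ratio of 1.10. Atp1b3, a beta subunit of the sodium pump, was at 1084 against 325 CPM (3.33, 3.12 to 3.56). The pump regulators Fxyd1 (229 against 39.8 CPM; 5.76, 4.82 to 6.90) and Fxyd7 (144 against 6.27 CPM; 23.0, 15.4 to 35.8) were higher, as was Fxyd6 on 20 against 3 UMIs (12.0, 3.56 to 63.1). Without macrophage transcripts Atp1b3 was at 3.28 (2.97 to 3.61), Fxyd1 at 7.11 (5.65 to 8.96), Fxyd7 at 14.1 (8.68 to 23.5) and Fxyd6 at 27.7 (5.53 to 268; 8 and 2 UMIs). Slc12a2, the sodium potassium chloride cotransporter, was at 837 against 597 CPM. Cntn2, the adhesion molecule that gathers Kv1 channels beside the node, was at 515 against 585 CPM, and Hepacam, a partner of glial connexins and chloride channels, at 163 against 225 CPM. In NFOs 12 of the list were counted, 1 higher and 2 lower, against 15.8% and 6.86% of all genes.

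Oligodendrocyte barcodes often held several members at once. In the uninjured library 64 of 857 held none of the 7, 243 held 4 and 76 held 5; in the injured library 103 of 293 held none, 59 held 4 and 32 held 5. No barcode of either library held 6. Gjb1 and Gjc3 were found together in 406 uninjured and 101 injured oligodendrocyte barcodes, and Kcna1 and Kcna2 together in 127 and 38. These numbers follow depth, since uninjured oligodendrocytes with a Gjb1 UMI had a median of 5932 UMIs and those without one 1436.

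Genes whose levels followed a member most closely over the 6 classes were ranked by Pearson's r of log2(CPM + 10) among 5320 genes, as a description over 6 points that share 2 libraries. Gjb1 was most like Abcg1 (r = 0.997), Pip4k2a and Rnf141, and Kcna1 most like Ptgds (r = 0.996), Pde6d and Cryab, each with over 100 genes above 0.95 (103 and 106). Kcnj10 came nearest to Actn4 (r = 0.988). Gjc3 and Kcna2 had few such companions, 2 each above 0.95, led by Tm2d2 (r = 0.967) and Ankrd44 (r = 0.992).

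In the GRCm38 annotation the 7 genes are spread over 7 chromosomes, all protein coding. Gjb1 lies at chrX:101376378-101385629 and Gjc3 at chr5:137953461-137963098, Kcnj10 at chr1:172341210-172374085 and Kcnj16 at chr11:110968033-111027968. Kcna1 is at chr6:126640397-126646384, Kcna2 at chr3:107101146-107115005 and Kcnk1 at chr8:125995170-126030685. Gjc3 and Kcna1 are on the minus strand and the others on the plus strand.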

How the data were processed

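Reads were aligned by the authors to mm10 and counted with Cell Ranger 1.3 (submitters' processing notes), and cells were kept with at least 200 genes, at most 20% mitochondrial transcripts and at most 150000 UMIs. The deposited values are NE from Seurat 4.0.3, the natural log of 1 plus 10000 times a gene's UMIs over the barcode's total. The authors deposited them for the oligodendrocyte lineage, with a type per barcode; a table of both libraries together was not used here. Whole UMIs were recovered from the steps of the values (within 0.001 in 100% of barcodes). GEO gives both samples 1 treatment text, so conditions follow the titles. No doublet caller was run. UMIs were summed per class (Python 3.11.15, scipy 1.17.1). The intervals were checked on class sums simulated as Poisson counts. Such counts hold no clustering of UMIs within barcodes, so the check cannot cover that spread. Depth was 4414834 (uninjured) and 2771797 (injured) UMIs. Coordinates come from GENCODE vM21. The members, gene lists and alternatives were chosen with earlier results of these data known. Named were the 7 members, up to 10 genes of each list with most UMIs, those past 2-fold with at least 50 UMIs, Gja1 and Gjb6; some genes of the lists are not reported here.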

Additional observations from a re-analysis of the deposited data

Results flagged for a closer look

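Over all barcodes, 2 members had ratios after ONC that pointed opposite ways in NFOs and oligodendrocytes, with intervals that exclude 1 in both types. Gjc3 was at 1.76 times the uninjured CPM in NFOs and at 0.719 in oligodendrocytes, and Kcnj10 at 2.41 times in NFOs and at 0.903 in oligodendrocytes. Kcna2 also pointed in opposite directions, at 2.94 and 0.620, but its NFO interval spans 1. The difference between the types was not tested, since each condition is 1 library. The Kcnj10 value in uninjured NFOs rests on 6 UMIs. Without barcodes that hold a macrophage transcript, NFO intervals spanned 1, with Gjc3 at 1.18 (0.818 to 1.71) and Kcnj10 at 1.92 (0.666 to 6.22). In oligodendrocytes they were then at 0.753 (0.650 to 0.869) and 0.819 (0.679 to 0.982). In oligodendrocyte barcodes over 8000 UMIs, Kcnj10 was at 0.995 (0.886 to 1.12) and Gjc3 at 0.835 (0.755 to 0.922). Between 1000 and 8000 UMIs Gjc3 was at 0.938 (0.767 to 1.14).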

How the results depend on the processing

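No paired analysis was possible because each condition is 1 library and the labels carry no replicate numbers. Depth is the main limit, since 12 of the 42 counts of a member in a class are 3 UMIs or fewer. In oligodendrocytes after ONC, 1 member passed 2-fold in all barcodes; 2 did (both lower, Gjc3 and Kcna2) by the mean CPM over barcodes, and 0 with barcodes of 1000 to 8000 UMIs, without those over 20000 UMIs or after scaling by the median ratio of 1.07. Below 1000 UMIs (added after seeing the data), with 133 of the 293 injured barcodes, 3 passed, all lower (Gjc3 0.243, Kcnj10 0.437 and Kcna1 0.243), and Gjb1 turned to 0.600. Thinning left 1, but another and lower, Kcnj10 at 500 UMIs and Kcna2 at 1000 UMIs. In NFOs, 3 members passed; 1 did when thinned to 500 or to 1000 UMIs and 0 without barcodes with macrophage markers, where Kcna1 turned to 0.958. Of 3 members past 2-fold between injured oligodendrocytes and OPCs, thinning to 500 UMIs left a count of 1. The ratios themselves fell, with lowest values over the settings of 1.53 for Kcna1 and 1.45 for Kcnj10. Over all genes, 1357 passed 2-fold in oligodendrocytes, 3303 by the mean CPM over barcodes (23.6% of them higher against 57.6%), 863 with at least 50 UMIs and 2559 without a filter. In NFOs 913 passed, against 1371 by the mean CPM, 124 and 186 thinned to 500 and 1000 UMIs, 411 with barcodes of 1000 to 8000 UMIs, 577 without those over 20000, 408 without macrophage markers, 294 with at least 50 UMIs and 2985 without a filter. The share higher among oligodendrocyte calls was 34.8% at 1000 to 8000 UMIs, 70.2% above 8000 UMIs (a split chosen after seeing the data), 31.1% below 1000 UMIs and 39.3% without macrophage markers. The cause of these shifts was not tested.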
